A study of Drosophila melanogaster with 3 samples.

Results

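Heads of adult Drosophila melanogaster carrying constitutively active protein kinase A (PKA-CA) were compared with control heads, 1 Affymetrix array against 1, out of 3 arrays in the series. Each of 5991 genes, of 11981 with a named probe set, was described by the log2 ratio of its PKA-CA signal to its control signal. A probe set is a group of short probes that reads 1 transcript. A gene was read from the probe set with the highest mean signal among those naming it alone, and entered when its mean signal over the 3 arrays lay in the upper 50% of genes, above 254. The control genotype was p247-Gal4,tub-gal80[ts]/+. PKA-CA flies had the same driver and repressor and in addition UAS-PKA-CA. The remaining array held heads with UAS-PKA-DN, a dominant-negative form, in that background, and its signals are given beside the others as a description. All flies thus carried p247-Gal4 (MB247-Gal4), whose enhancer is active in mushroom body neurons, and a tubulin-promoter temperature-sensitive Gal80, which blocks Gal4 until the flies are warmed. They were raised at 18 °C and held at 32 °C for 12 to 16 h. Whole heads were taken at an age of 4 to 6 days, with 6 ug of Trizol-extracted total RNA used for labelling. The sex of the flies is not given in the labels. The submitters' design text couples raised and lowered PKA activity to the transgenes in the reverse of what their names say, and no source used here gives the coding sequences of the transgenes or a measure of kinase activity.

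PKA is the kinase that cAMP switches on. In flies, cAMP made by adenylyl cyclases such as rutabaga frees the catalytic subunits of PKA from their regulatory subunits, phosphodiesterases such as dunce remove cAMP, and PKA phosphorylates ion channels, synaptic proteins and the transcription factor CREB. The mushroom bodies are the paired brain centres in which this pathway supports olfactory memory. The driver acts in these neurons, while the RNA came from whole heads, which hold brain, retina, glia, fat body, muscle, blood cells and cuticle among other tissues. In such RNA, fewer cells of a type and less RNA per cell cannot be told apart.

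Each genotype was measured on 1 array, without replicates, so no ratio has an error or a test, and every ratio holds any difference between flies, extractions and hybridizations as well as the genotype. The highest of the 99 probe sets that the array carries as negative controls had a signal of 77.0 in control and 70.9 in PKA-CA heads, and 0 of the 5991 genes were at or under it on either array. Genes of a head were bright: the neuronal gene nSyb had signals of 2838 in control and 2879 in PKA-CA heads, the photoreceptor gene trp 15510 and 15032, and the glial gene repo 1458 and 1506. Of 31 male reproductive tract genes with a probe set, 0 passed the signal threshold. The antennal co-receptor gene Orco, at 57.5 and 30.5, was under the highest negative control on both arrays.

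Most genes had nearly the same signal in PKA-CA and control heads. The median log2 ratio was -0.0032, the middle 50% of genes lay between -0.16 and 0.14, and the central 95% lay between -0.54 and 0.50, or from 1.45-fold lower to 1.42-fold higher. The correlation of log2 signals across genes was 0.980 (genes are not independent replicates). In PKA-CA heads 49.5% of genes were higher by any amount. At least 1.5-fold higher were 103 genes, or 1.72%, and at least 1.5-fold lower were 113, or 1.89%. At least 2-fold higher were 13 genes, or 0.217%, and at least 2-fold lower were 14, or 0.234%. These shares are the background for every gene group described here.

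The negative controls show how ratios behave without signal. Their median log2 ratio was -0.53 with an SD over probe sets of 1.74, and 56 of 99 (56.6%) differed by 2-fold or more. Among named genes with a mean signal under 77.8, 40.4% did so. The share was 2.81% between there and the threshold, 0.577% from 254 to 1000 and 0.3% from 1000 to 4000. Probe sets of the same gene gave a second measure of precision. In 304 genes with several probe sets over the threshold, the pooled SD of the log2 ratio between probe sets of a gene was 0.27, and all of them lay on the same side of 0 in 147 genes (48.4%). None of the 27 genes at 2-fold or more had a second named probe set.

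**Figure D1:**
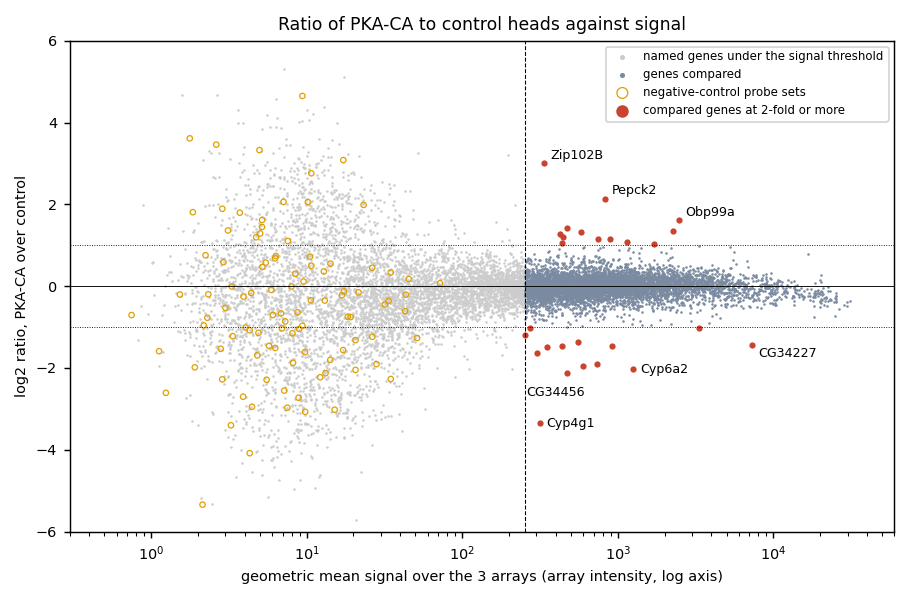
Log2 ratio of PKA-CA over control (vertical) against the geometric mean signal over the 3 arrays (horizontal, log axis) for the 5991 genes compared, the dimmer named genes and 99 negative-control probe sets; the vertical dashed line marks a signal of 254, the dotted lines mark 2-fold, and 1 point lies outside the axis. The ratios spread widely at negative-control level and narrow above 254, where 13 genes lie above and 14 below the 2-fold lines.

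The pair of highest genes in PKA-CA heads encode a metal transporter and a metabolic enzyme. Zip102B, a gene of the zinc transporter family, had a signal of 81.6 in control and 654 in PKA-CA heads, 8.01-fold higher (log2 ratio 3.0), and 694 in PKA-DN heads. Its control signal barely exceeded the negative controls, which makes the fold uncertain, and the gene passed the signal threshold only with the PKA-DN array in the mean. Pepck2, for a phosphoenolpyruvate carboxykinase, which commits oxaloacetate to gluconeogenesis, had 297, 1310 and 1452 in the same order (log2 ratio 2.14). For both genes the control array was low and both PKA arrays were high; the PKA arrays are compared with the same control array.

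In the other genes at least 2-fold higher the PKA-DN signal lay between those of control and PKA-CA heads, close to the control in some. Obp99a, an odorant-binding protein gene, had 1288 in control, 3934 in PKA-CA and 2928 in PKA-DN heads, 3.05-fold higher in PKA-CA (log2 ratio 1.61). Prx6c, for a peroxiredoxin, which reduces peroxides, had 281, 758 and 498 (1.43). For MtnD, a metallothionein gene, the signal was high in PKA-CA alone, with 303 in control, 730 in PKA-CA and 341 in PKA-DN heads (log2 ratio 1.27). The same held for Pkc98E, for a protein kinase C, a relative of PKA driven by lipid signals, with 855, 1792 and 980 (1.07). The receptor gene robo1, whose product keeps axons from crossing the midline on binding Slit, had 287, 662 and 468 (1.20). CG11425 had 1539, 3934 and 1950 (1.35), CG10962 had a ratio of 1.32, CG3097 of 1.16, Srg1 of 1.15, VepD of 1.05 and CG9837 of 1.02. In the same order of control, PKA-CA and PKA-DN heads, CG10962 had 341, 852 and 663, and CG3097 had 468, 1045 and 858. Srg1 had 658, 1464 and 738, VepD 296, 614 and 466, and CG9837 1270, 2580 and 1528. In each of these genes the control array was the lowest and the PKA-CA array the highest. In CG11425, Srg1 and CG9837 the PKA-DN signal was close to the control, as in MtnD and Pkc98E (log2 ratios of PKA-DN to control 0.34, 0.17 and 0.27).

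The 14 genes at least 2-fold lower in PKA-CA heads included 2 cytochrome P450 genes, one of them the lowest of all. Cyp4g1, for the oenocyte P450 that completes cuticular hydrocarbon synthesis, had a signal of 766 in control, 76.0 in PKA-CA and 541 in PKA-DN heads, 10.1-fold lower (log2 ratio -3.33). Its PKA-CA signal was close to the highest negative control of that array, 70.9, and it too passed the threshold only through the PKA-DN array. Cyp6a2, a P450 gene known for induction by xenobiotics and high levels in insecticide-resistant strains, had 1968, 482 and 2107, 4.08-fold lower (-2.03). In both genes PKA-CA was the low array, and the control and PKA-DN arrays were high. The same order held for CG18343, with 824, 213 and 1241 (-1.95), CAH5, a carbonic anhydrase gene, with 380, 122 and 593 (-1.64), CG4757 with 1232, 331 and 963 (-1.89), CG13022 with 472, 169 and 540 (-1.48), and et (eye transformer), whose product restrains JAK/STAT signalling, with 350, 171 and 339 (-1.03). Like Cyp4g1, CAH5 and et passed the threshold only through the PKA-DN array. The ratio of et was under 2-fold with quantile normalization, with loess and with 64 added to each signal.

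In the remaining lower genes the control array stood above both PKA arrays. The gene ebony (e), for the enzyme that joins beta-alanine to dopamine and histamine in cuticle and glia, had 800 in control, 291 in PKA-CA and 360 in PKA-DN heads (log2 ratio -1.46). The prophenoloxidase genes PPO2 and PPO1, for melanization enzymes of crystal cells, had 1824, 663 and 631 (-1.46) and 1041, 405 and 409 (-1.36). Pgant4, for an enzyme that starts mucin-type sugar chains, had 438, 191 and 194 (-1.19), and CG34227 had 13633, 5020 and 5710 (-1.44). Because these PKA signals share 1 control array, a high reading on that array and a low level in both PKA genotypes cannot be told apart. CG34456 had 985, 225 and 475 (-2.13), and the cuticle protein gene Cpr72Ec 4862, 2383 and 3200 (-1.03).

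**Figure D2:**
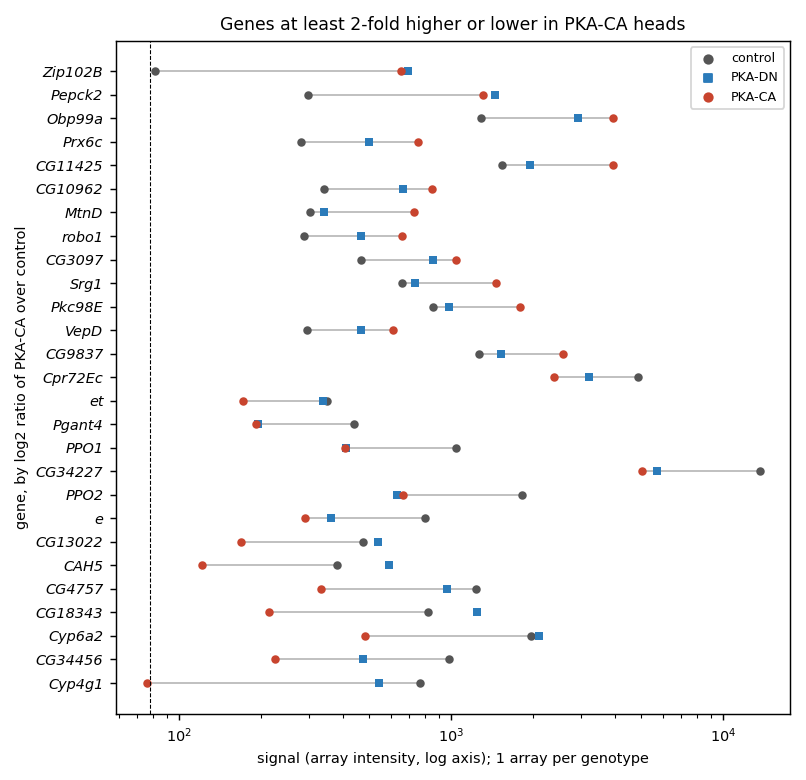
Signals (horizontal, log axis) of the 13 genes at least 2-fold higher and the 14 at least 2-fold lower in PKA-CA than in control heads, with 1 array per genotype and a grey line joining control and PKA-CA. The dashed line is the highest negative control on any array, 77.8; Cyp4g1 in PKA-CA heads, at 76.0, lies beside it, and the PKA-DN signal lies near the PKA-CA signal for some genes (Zip102B, PPO1) and near the control for others (Cyp6a2, MtnD).

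Just under 2-fold, the next higher genes included ones for muscle, cuticle, hormones and synapses. Mlp60A, a muscle LIM protein gene, had 2072 in control, 4127 in PKA-CA and 4317 in PKA-DN heads (log2 ratio 0.99), although its 3 probe sets ranged from -0.36 to 0.99. Ilp5, an insulin-like peptide gene of brain neurosecretory cells, had 1632, 3129 and 2100 (0.94). Spn (Spinophilin), for a protein that brings protein phosphatase 1 to synapses, had 656, 1244 and 550 (0.92), with its 3 probe sets between -0.13 and 0.92. Tpst, for the enzyme that adds sulfate to tyrosines, had 0.97, with 3 probe sets between -0.52 and 0.97, and Gld, for a glucose dehydrogenase, 0.93. The genes phu, CG8539 and CG4461 had 0.96, 0.93 and 0.89. The laccase gene stw (straw), which hardens cuticle, had 0.95, with its 3 probe sets between -1.67 and 0.95 and their average at -0.07. Of the 10 next lower genes 4 belong to detoxification families: GstE11 at -0.99, Est-Q at -0.93, Cyp6a13 at -0.93 and Cyp9h1 at -0.91. The lists of these families held 26 glutathione transferase, 9 carboxylesterase and 44 cytochrome P450 genes of the 5991 compared. Among the others were CG2202 at -0.97, CG5676 at -0.96, CG14567 at -0.94, CG7509 at -0.91 and CG7997 at -0.91. Fic, for an enzyme that attaches AMP to the chaperone BiP and is needed for vision, had 636 in control, 344 in PKA-CA and 491 in PKA-DN heads (-0.89).

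Families of detoxification genes differed from each other. Cytochrome P450 genes, whose enzymes oxidise hormones, fatty acids and foreign compounds, were mostly lower: 36 of 44 compared, of 86 with a probe set, with a median log2 ratio of -0.26, none 1.5-fold higher and 7 at least 1.5-fold lower (15.9% of the 44, beside 1.89% of all genes). Beyond the 4 named above, the 7 were Cyp6d2 at 1005 in control and 560 in PKA-CA heads (-0.84), the glial Cyp4g15 at 1394 and 837 (-0.74), and Cyp4ac2 at 304 and 199 (-0.61). Cyp4g1 is among the 7 and passed the threshold only through the PKA-DN array. The highest P450 ratio among the 44 was 0.28, for Cyp18a1, whose enzyme inactivates ecdysone. Cyp6a17 was higher, at 241 in control and 711 in PKA-CA heads (1.56). With 26.2 in PKA-DN heads, its mean over the 3 arrays fell under the threshold, and it was not compared. Summed over all 86 genes, P450 signal was 110670 in control, 92215 in PKA-CA and 105620 in PKA-DN heads.

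Glutathione transferase genes, for enzymes that join glutathione to electrophiles, had 20 of 26 lower and a median of -0.17. At least 1.5-fold lower were 3, or 11.5% beside 1.89% of all genes: GstE11 (633 in control, 319 in PKA-CA), GstD9 (1940 and 1077, -0.85) and GstE2 (767 and 507, -0.60). UDP-glycosyltransferase genes, for enzymes that add sugars to small molecules, leaned the other way, with 9 of 13 higher and a median of 0.14, which was -0.08 when only the brightest 25% of genes were used. Ugt36E1 had 469 in control, 755 in PKA-CA and 632 in PKA-DN heads (0.68), and Ugt37D1 647, 983 and 835 (0.60), whereas Ugt37A3 had -0.47. Carboxylesterase genes had 7 of 9 lower, but alpha-Est2 was at 0.84 (736, 1318 and 1982). ABC transporter genes, 9 in number, ran from -0.44 for rdog to 0.23 for Mdr65, a drug pump of the blood-brain barrier.

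**Figure D3:**
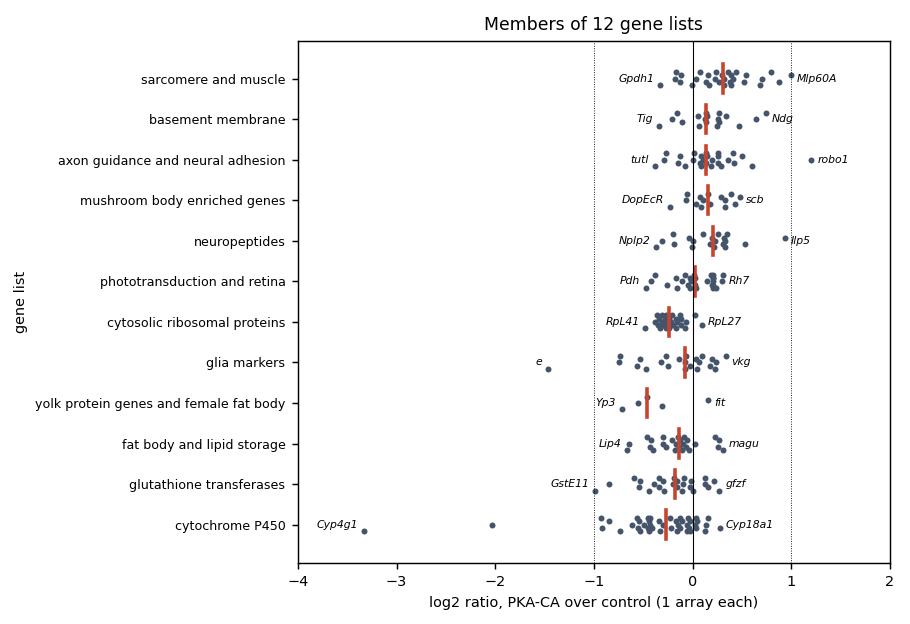
Log2 ratio of PKA-CA over control for each compared member of 12 gene lists, 1 point per gene, with the list median as a red bar and the lowest and highest members named; dotted lines mark 2-fold. Cytochrome P450 genes reach from -3.33 (Cyp4g1) to 0.28 (Cyp18a1), and muscle genes from -0.33 (Gpdh1) to 0.99 (Mlp60A).

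Genes of lipid-handling tissues were mostly lower in PKA-CA heads. Fat body and lipid storage genes had 21 of 26 lower and a median of -0.14. Lip4, a lipase gene, had 463 in control, 292 in PKA-CA and 404 in PKA-DN heads (-0.66), the lipase family gene CG5966 had 3463, 2214 and 3151 (-0.65), mdy, for the enzyme that completes triglyceride synthesis, had -0.46, and Lsd-1, for a lipid droplet coat protein, -0.43. The storage protein gene Lsp2 had 16269, 19498 and 25980 (0.26), and magu had 0.31. Summed signal over all 33 fat body genes was 177030 in control, 159450 in PKA-CA and 184310 in PKA-DN heads; Fbp1 and Fbp2 were at or under the highest negative control on both arrays.

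Among genes of fatty acid synthesis, elongation and oenocytes, 17 of 22 were lower, with a median of -0.16. Lower by 1.5-fold or more were 3 of the 22, or 13.6% beside 1.89% of all genes. They were Cyp4g1, Cyp4g15 and Fatp3, a fatty acid transport protein gene, with 878 in control and 543 in PKA-CA heads (-0.69). Cyp4g1 and Cyp4g15 are also counted among the P450 genes, and Cyp4g1 passed the threshold only through the PKA-DN array. The acyl-CoA synthetase genes bgm and hll had -0.49 and -0.36, whereas Desat1, for the main fatty acid desaturase, had 19109 and 17737 (-0.11), and the elongase gene CG31523 had 0.25. No other member was as low as Cyp4g1, and the next, Cyp4g15, was at -0.74. Of this list 13 genes, FarO, eloF and Desat2 among them, were at or under the negative-control level on both arrays.

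Yolk protein genes, which the fat body of females transcribes, were lower: Yp3 had 31774 in control, 19322 in PKA-CA and 25363 in PKA-DN heads (-0.72), Yp1 -0.56 and Yp2 -0.46, while fit, a female-enriched fat body gene, had 0.16. The number of females per array is not given in the labels, and its part in these ratios was not tested. Yp1, Yp2 and Yp3 also lie in the range of signals above 16000, where 7.14% of genes were higher in PKA-CA. The lipoprotein gene apolpp, in the same range, had 29197 and 22162 (-0.40).

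Sugar and energy metabolism held 1 high gene among many slightly lower ones. Apart from Pepck2, genes of gluconeogenesis and glycolysis lay between -0.35 and 0.15, with 13 of 22 lower. Its sister gene Pepck1 had 26504 in control, 20763 in PKA-CA and 20961 in PKA-DN heads (-0.35), so the carboxykinase genes lay on opposite sides of the control. With signals above 16000, Pepck1 also lies in the range where the median was -0.26 and 7.14% of genes were higher in PKA-CA. Citrate cycle genes had 15 of 20 lower and a median of -0.06, from ScsbetaG at -0.63, for a succinyl-CoA ligase subunit, to Idh3b at 0.26. Of respiratory chain genes 33 of 55 were higher, with a median of 0.04, and COX7AL2, for a cytochrome c oxidase subunit, was the only one past 1.5-fold (1799 in control, 2898 in PKA-CA, 0.69). Sugar transporter genes had 5 of 7 lower (median -0.27, but 0.18 in the brightest 25% of genes), with bumpel, of glia, at -0.65 and the trehalose transporter gene Tret1-1 at 0.18.

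Carriers of amino acids, metals and electrons varied gene by gene. Of 26 amino acid transporter genes 14 were higher. The glutamate transporter family gene dmGlut had 218 in control and 377 in PKA-CA heads (0.79), and CG33296 had 558 and 303 (-0.88). The gene path (pathetic), whose PKA-DN signal was 736, had 2952 in control and 3507 in PKA-CA heads (0.25). Zinc and copper transporter genes other than Zip102B lay between -0.61 for ATP7, a copper pump gene, and 0.32 for ZnT77C. Of the metallothionein genes, MtnD was high, MtnA, the bright member, had 26697 and 23942 (-0.16), and MtnB and MtnC had signals under 10 on both the control and PKA-CA arrays. Antioxidant genes other than Prx6c lay between -0.50 for the catalase family gene Irc and 0.35 for MsrA, with 13 of 18 lower.

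Muscle genes formed the list with the highest median among lists of at least 3 genes, at 0.31, and 24 of 30 were higher. At least 1.5-fold higher were 5 of them, or 16.7% beside 1.72% of all genes. The troponin T gene up had 571 in control, 1046 in PKA-CA and 688 in PKA-DN heads (0.87). Prm, for paramyosin of thick filaments, had 1469, 2558 and 2286 (0.80), with its other probe set at 0.61. The actin gene Act87E had 978, 1589 and 1657 (0.70), CG5023 had 0.68, and Mlp60A is given above. Actn had 0.54, for the alpha-actinin of the Z disc, and Tm2 0.53, for tropomyosin. The list was not uniform: Argk1, for the arginine kinase that buffers ATP, had -0.01, Mhcl, a myosin gene, -0.17, and Act88F, the flight muscle actin gene, had 87.1 and 68.1 and was not compared. Summed over all 35 genes, muscle signal was 71022 in control, 82082 in PKA-CA and 81113 in PKA-DN heads. Whether the amount of muscle left on the severed heads differed between arrays was not tested.

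Basement membrane genes, for the extracellular sheet around muscle, fat body and brain, had 14 of 18 higher and a median of 0.14. Ndg (nidogen) had 293 in control, 491 in PKA-CA and 478 in PKA-DN heads (0.74), and Plod, for the lysyl hydroxylase that matures collagen, had 758, 1181 and 905 (0.64). The laminin gene LanB2 had 0.48 and LanB1 0.27, and the collagen IV genes vkg and Col4a1 had 0.34 and 0.27. Tig (tiggrin), an integrin ligand gene, had -0.34, and the probe sets of trol (perlecan), 8 in number, ran from -1.0 to 1.45.

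Immune gene lists held more lower than higher genes, with single genes going the other way. Antimicrobial peptide genes had 12 of 16 lower and a median of -0.12, which was -0.05 after loess. DptB, a diptericin gene, had 606 in control, 1114 in PKA-CA and 2384 in PKA-DN heads (0.88), and BomS5 had 7288, 5168 and 9126 (-0.50). In the Toll, Imd and JAK/STAT pathways 14 of 23 genes were lower. The lowest were et, which passed the threshold only through the PKA-DN array, and IKKbeta, for the kinase that activates Relish (499 in control, 296 in PKA-CA, -0.75). Blood cell and melanization genes had 13 of 22 lower. After PPO2 and PPO1, NimB2, a nimrod family gene, had 5323 in control, 3115 in PKA-CA and 5601 in PKA-DN heads (-0.77), whereas the phagocyte genes Hml, crq and NimC1 had -0.08, 0.15 and -0.22. Summed signal of all 28 blood cell genes was 48885 in control, 45598 in PKA-CA and 47841 in PKA-DN heads; He and PPO3 were at or under the negative-control level on both arrays. All 7 lower of the 9 serine protease genes were within 1.5-fold, with Ser7 at -0.40.

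Glial markers split by gene. Below the control by 1.5-fold or more were 3 of 23, or 13% beside 1.89% of all genes. They were e, alrm, an astrocyte gene (1464 in control, 875 in PKA-CA and 910 in PKA-DN, -0.74), and Cyp4g15, which is also counted among the P450 genes. The G protein regulator gene loco had -0.57, the GABA transporter gene Gat -0.54 and the glutamine synthetase gene Gs2 -0.32. At the other end, moody and Mdr65 of the blood-brain barrier had 0.20 and 0.23, Eaat2 had 0.23, and repo, for the transcription factor that all but a few glia share, had 0.05. Of the 23 genes 14 were lower. Summed over all 28 glial genes with a probe set, signal was 65387 in control, 62874 in PKA-CA and 62656 in PKA-DN heads.

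Eye and cuticle genes showed no shared direction. Phototransduction and retina genes had 16 of 28 higher, from Pdh, a retinal pigment cell dehydrogenase gene, at -0.47 (26033 in control, 18794 in PKA-CA) to the opsin gene Rh7 at 0.31. The arrestin genes Arr1 and Arr2 had -0.17 and -0.38 and are, like Pdh, among the brightest genes. Of 19 eye pigment and background markers 10 were higher, with g (garnet) at 0.48 and e lowest. The enzyme gene tan (t), which reverses the reaction of ebony, had a log2 ratio of 0.23, so e and t lay on opposite sides of the control. Cuticle protein genes, 12 compared of 110 with a probe set, ran from Cpr72Ec at -1.03 and Cpr11B at -0.80 to Cpr100A at 0.73.

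Neuronal gene lists were mostly a little higher in PKA-CA heads. Neuron markers had 16 of 21 higher and a median of 0.11, with CadN at 0.42 and Snap25 at 0.31, and with elav at 0.04 and nSyb at 0.02. Their sum over all 25 genes was 64869 in control, 70644 in PKA-CA and 60825 in PKA-DN heads. Mushroom body enriched genes, from the tissue in which the transgene is driven, had 12 of 15 higher and a median of 0.16. The integrin gene scb had 272 in control and 381 in PKA-CA heads (0.48), drk, for an adaptor of receptor kinases, 713 and 963 (0.43), and the transcription factor genes toy, ey and dac had 0.33, 0.18 and -0.05. Between scb and dac also lay trio (0.29), chinmo (0.16), mub (0.11), Dscam1 (0.09) and Imp (0.04), and 14-3-3zeta had -0.07. No member was past 1.5-fold, and DopEcR, a dopamine and ecdysone receptor gene, had -0.23. The vesicular transporter gene prt (portabella), of these neurons, had 64.5 and 118 and was not compared.

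The genes of cAMP signalling that were compared lay close to the control. Ac76E had 648 in control and 864 in PKA-CA heads (0.42), dnc 652 and 853 (0.39), Epac, for a cAMP sensor other than PKA, 781 and 991 (0.34), and rut 510 and 538 (0.08). All 4 genes compared for adenylyl cyclases and the stimulatory G protein, and 4 of 5 phosphodiesterase genes, were higher. Of 5 PKA subunit genes listed, only 2 had a probe set naming them alone, so the others were not read. Pka-R1, a regulatory subunit gene, had 782 and 1033 (0.40), with its other probe set at -1.03, and the catalytic subunit gene Pka-C3 had 1631 and 1615 (-0.01). The anchoring protein genes ran from nvy at 0.44 to Akap200 at -0.43 (3494 and 2591). Among CREB partners, REPTOR-BP had 0.26, Crtc -0.17 and nej -0.33, the other probe set of nej reading 2.58. Activity-regulated genes, which neurons transcribe after firing, had 9 of 13 higher; CG14024 had 0.65 and CG13868 0.64, but Arc1 had 5739 and 6048 (0.08) and kay, for Fos, -0.03.

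Genes for synapses and for wiring gave similar small medians. Synaptic vesicle and active zone genes had 19 of 23 higher (median 0.11), from Syt7 at 0.44 to Rbp at -0.56. Nicotinic receptor genes had 7 of 8 higher (0.14), with nAChRbeta1 at 2460 in control and 3331 in PKA-CA heads (0.44, and 0.48 on its other probe set) and nAChRalpha2 at -0.21. Among receptors for GABA, glutamate and histamine, KaiR1D had 0.64 and ort, the histamine channel behind photoreceptors, 630 and 429 (-0.55). Axon guidance and neural adhesion genes had 21 of 27 higher (0.14). After robo1 came Con (connectin) at 0.60, the receptor phosphatase gene Lar at 0.51 and the Netrin receptor gene fra at 0.41, with tutl lowest at -0.38. Ion channel genes diverged: the potassium channel subunit gene Hk had 1409 in control and 2187 in PKA-CA heads (0.63, but -0.00 on another probe set), and Elk, for another potassium channel, 356 and 220 (-0.69). The sodium channel gene para had 791 and 506 (-0.65), while tipE, for its accessory subunit, had 387 and 550 (0.51).

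Neuropeptide genes had 14 of 20 higher and a median of 0.21. Their summed signal went the other way: over all 34 genes with a probe set it was 76218 in control, 70566 in PKA-CA and 76288 in PKA-DN heads. After Ilp5, corazonin (Crz) had 475 in control, 686 in PKA-CA and 559 in PKA-DN heads (0.53), and Ilp2 1801, 2297 and 2111 (0.35); sNPF had 0.33 and NPF 0.32. The lowest was Nplp2 at -0.37, and with a control signal of 35444 it is also among the brightest genes. In insulin signalling 11 of 14 genes were higher, including the kinase gene Akt at 0.43 and the receptor gene InR at 0.32. Odorant-binding protein genes were evenly split, 9 higher and 9 lower: beside Obp99a, Obp83cd had 339, 637 and 344 (0.91), and Obp19b had 988, 594 and 775 (-0.74). Circadian clock genes had 11 of 19 higher, all within 1.5-fold, with Pdp1 at 0.39, tim at 0.03 and cyc at -0.22.

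Other membrane and hormone genes were mixed. Tetraspanin genes, for proteins that organise membrane patches, had 11 of 18 lower (median -0.15), from lbm (late bloomer) at -0.72 and Tsp42Ee at -0.63 to Tsp42Eg at 0.65. Ecdysone and juvenile hormone genes lay between EcR at -0.48 and the ecdysone importer gene Oatp74D at 0.40. Among sex-biased head genes, CG11458 had 1081 in control, 2052 in PKA-CA and 1291 in PKA-DN heads (0.92), dsx 532, 800 and 724 (0.59, but -0.12 on its other probe set) and tra2 -0.47.

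Genes of protein making and breakdown differed by list. Listed proteasome, chaperonin, cytosolic ribosomal and aminoacyl tRNA synthetase genes were mostly a little lower, and none of them was past 1.5-fold. Translation factor genes were evenly split, 19 higher and 19 lower (median 0.0004), and mitochondrial ribosomal protein genes were nearly so. Chaperonin genes, for the ring that folds actin and tubulin, had 8 of 8 lower, from CCT1 at -0.41 to CCT4 at -0.06 (median -0.18). Proteasome genes had 25 of 28 lower (-0.11) and aminoacyl tRNA synthetase genes 18 of 22 (-0.11), the lowest of them AlaRS with 825 in control and 555 in PKA-CA heads (-0.57). The list was matched by gene symbol and missed alpha-PheRS, for a subunit of the phenylalanine enzyme, which was lower still at 695 and 419 (-0.73). Cytosolic ribosomal protein genes had 27 of 29 lower (-0.24), a median that was 0.02 under quantile normalization and -0.04 under loess. RpL41 had 35400 in control and 25417 in PKA-CA heads (-0.48). Mitochondrial ribosomal protein genes, which are dimmer, had 39 of 69 lower (-0.02), with mRpS29 past 1.5-fold (708 in control, 470 in PKA-CA, -0.59). Vacuolar proton pump genes had 13 of 17 higher (0.14), led by VhaM9.7-c at 0.32, and heat shock and chaperone genes 11 of 20 (0.05), from Hsp26 at -0.49 and Hsc70-4 at -0.48 to l(2)efl at 0.32. Of 8 reference genes, Gapdh1 had 9959 and 10018 (0.01), RpL32 -0.11 and eIF4A -0.23.

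**Figure D4:**
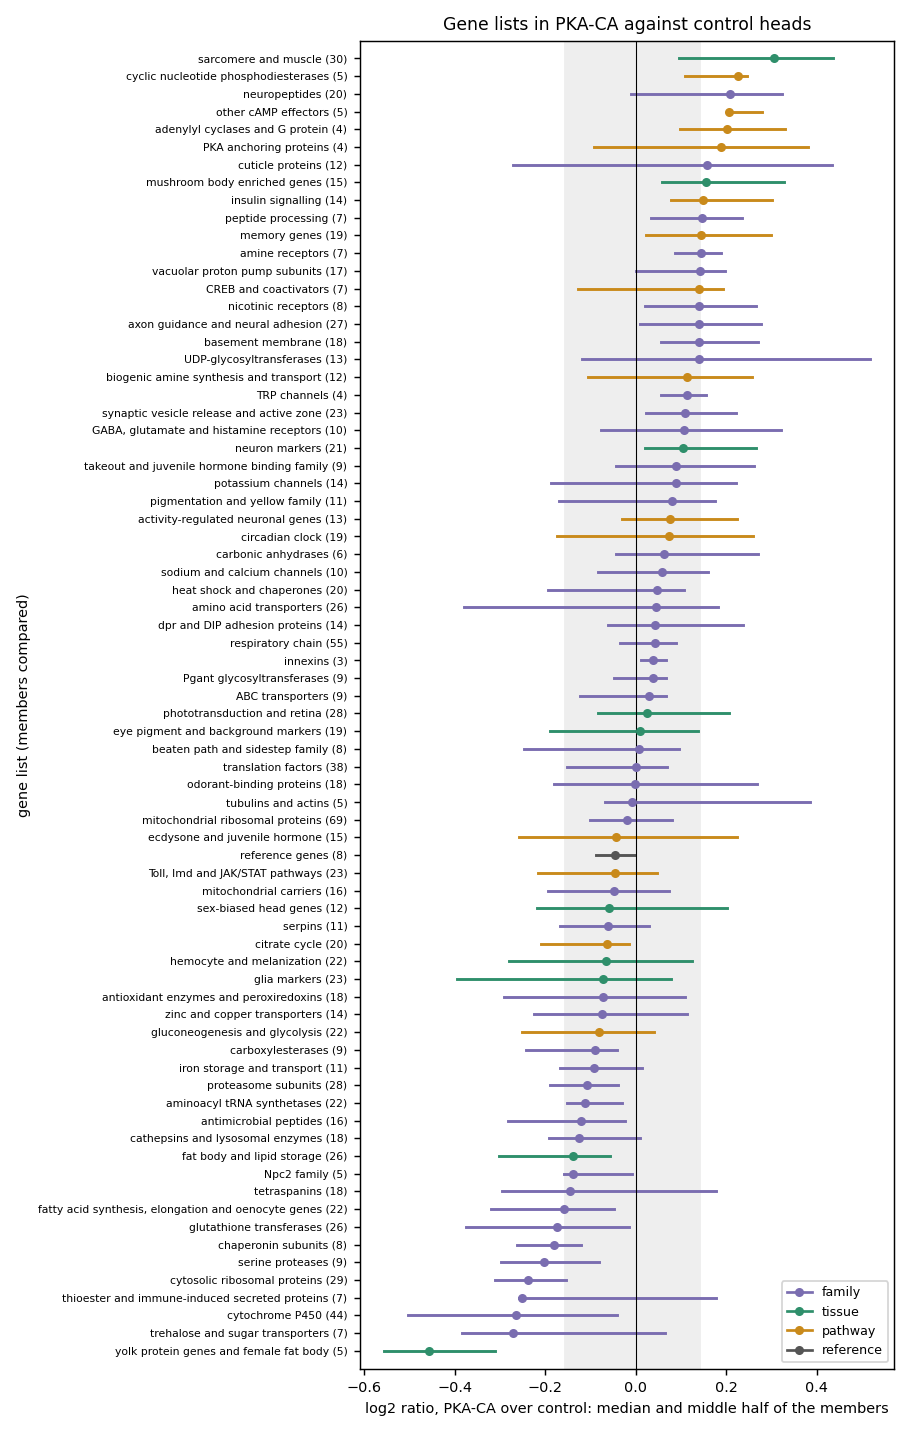
Median log2 ratio of PKA-CA over control (points) and the middle 50% of members (lines) for the 74 gene lists with at least 3 compared members, whose number is in brackets; the grey band is the middle 50% of all 5991 genes, -0.16 to 0.14. Muscle genes have the highest median (0.31) and yolk protein and female fat body genes the lowest (-0.46).

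Gene length and brightness moved with the ratio across all genes. In 5 classes of equal size by gene length, from a median of 1028 bp to one of 19616 bp, the median log2 ratio was -0.04, -0.06, -0.01, 0.02 and 0.08, and the share of higher genes 41.3%, 39.4%, 47.5%, 54.1% and 64.7%. In the shortest class 22 genes were at least 1.5-fold higher and 31 lower, and in the longest 30 and 8. By signal, the 70 genes above 16000 had a median of -0.26, and 7.14% were higher. From 1000 to 4000 the median was 0.03, and 56.3% were higher. The 3'/5' signal ratios, which rise as RNA breaks down, were 1.70 in control and 2.0 in PKA-CA heads for GAPDH, 1.79 and 1.70 for actin, and 2.51 and 3.01 for eIF-4a.

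**Figure D5:**
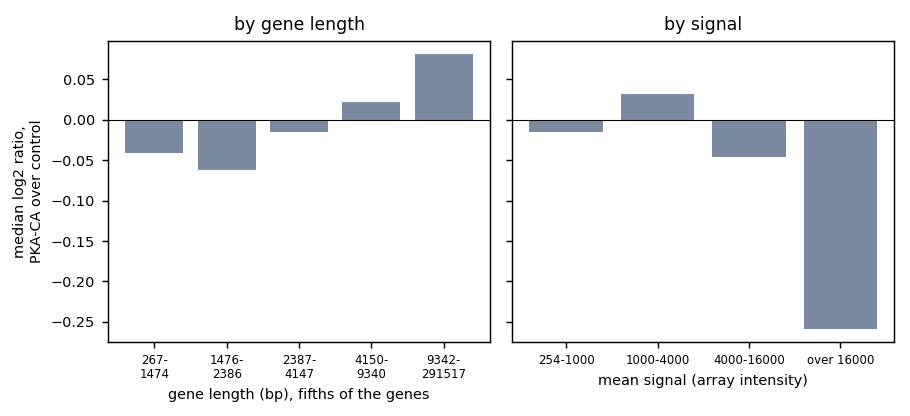
Median log2 ratio of PKA-CA over control in 5 classes of genes by gene length (left, base pairs) and in 4 classes of mean signal (right, array intensity). The median is 0.08 in the longest class and -0.26 in the 70 genes above 16000.

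Several lists sit at these ends. The median length was 28459 bp for mushroom body genes, 24384 bp for neuron markers and 40634 bp for axon guidance genes, and the median control signal of ribosomal protein genes was 22260. Each ratio was therefore also taken relative to the median of genes in the same of 5 classes by length and of 4 classes by signal, all of equal size, a setting chosen after seeing the data. The brightest of these signal classes holds the upper 25% of the genes compared, not the 70 above 16000 alone. List medians were then 0.06 for mushroom body genes, 0.03 for neuron markers, 0.06 for axon guidance genes, 0.07 for vesicle and active zone genes and -0.19 for ribosomal protein genes. They were 0.26 for muscle, 0.19 for neuropeptides, 0.12 for basement membrane, 0.15 for the vacuolar proton pump, -0.14 for glutathione transferases, -0.17 for the chaperonin, -0.20 for fatty acid and oenocyte genes and -0.23 for cytochrome P450 genes. Immune lists had small medians: -0.07 for antimicrobial peptides, -0.05 for the Toll, Imd and JAK/STAT pathways and -0.06 for blood cell and melanization genes.

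Some genes outside the upper 50%, 197 in all, were above 254 on control or PKA-CA. They were picked for a high signal on at least 1 array under a lower mean, which favours large differences. Their counts at 2-fold, 4 higher and 9 lower, are therefore no result about them. Of all named genes with a mean signal between 77.8 and 254, 2.81% differed by 2-fold or more. CG11893 had 41.2 in control, 380 in PKA-CA and 481 in PKA-DN heads. Its control signal was under the highest negative control of that array, and its PKA-CA signal was 4.93 times that negative control. CG4650 had 374, 67.9 and 0.95, and its control signal was 5.27 times the highest negative control of the PKA-CA array. With 1 array per genotype these values are no lower bounds on the folds. The P450 gene Cyp6a17 had 241 in control, 711 in PKA-CA and 26.2 in PKA-DN heads (log2 ratio 1.56), opposite to most of its family. The potassium channel gene sand (sandman) had 635, 157 and 91.4 (-2.02). Tsp42Eh had 126, 276 and 227 (1.13), CG8757 122, 480 and 182 (1.98), mah 260, 76.1 and 61.5 (-1.77) and Balat 307, 115 and 186 (-1.41).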

How the data were processed

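RNA from adult heads was measured on 3 Affymetrix arrays, 1 per genotype. The authors deposited array intensity on a linear scale, and the submitters' processing notes name MAS5 without a version. Trimming 2% of probe sets at each end left a mean of 500 on each array. Signals were used as deposited, with no added constant. Of 99 negative-control probe sets the highest signal served as the background level; 1 other, brighter than 1000, was not used. The platform's table listed 14049 of 18952 probe sets, 13646 of them with 1 symbol; 13543 were updated to RefSeq symbols of the assembly Release 6 plus ISO1 MT, from which gene lengths also come. Of the genes compared, 661 (11%) had several probe sets.

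Each gene was given as log2(PKA-CA) minus log2(control), with Python 3.11.15, numpy 2.4.6 and pandas 2.3.3. The calculation was tested on simulated data. No test was possible with 1 array per group. Members and gene lists were chosen with earlier results of these data known, and wrong names were taken out of the 83 lists after medians had been seen, so no list median is independent support. All compared genes at 2-fold are named, but not all dim genes at 2-fold. The others were drawn from the 25 highest and 25 lowest. From each list came members past 1.5-fold, the 4 highest and 4 lowest and the 3 brightest. Also drawn on were cAMP and mushroom body genes, tissue markers, and dim genes above 254 on 1 array and at background on the other. Not every one of these is printed. Dim genes without a signal at or under the negative controls, and MtnB, MtnC, path and alpha-PheRS, were named after their values were seen. In all, 8 alternatives were tried, and 1 more after seeing the data. Promoter sequences were not used here, so a planned search for CREB motifs was not run.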

Additional observations from a re-analysis of the deposited data

Results flagged for a closer look

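Probe sets without a gene name here were not part of the comparison and hold a signal of their own. Of 658 over the signal threshold, 6 were higher in PKA-CA by 2-fold or more and 1 was lower by as much, together 1.06%. Probe set 1624819_s_at had signals of 431 in control, 9406 in PKA-CA and 4198 in PKA-DN heads, 21.8-fold higher (log2 ratio 4.45), and 1624543_s_at had 336, 4390 and 2189, 13.1-fold higher (3.71). Both ratios exceed that of every named gene compared. The others were 1641367_at (1.61), 1626966_s_at (1.1), 1639729_s_at (1.09) and 1627551_s_at (1.05), the last with 201, 416 and 4227. The lower one was 1631321_s_at, with 646, 289 and 147 (-1.16). What these probe sets read was not tested. Probe sets naming several genes were not compared either. Of 189 of them over the threshold, 2 were at least 2-fold higher and 3 lower, together 2.65%.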

How the results depend on the processing

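No paired analysis was possible because each group has 1 array; for the same reason no replicate could be left out. Counts depended on the signal filter. With no filter, 652 genes were higher and 1179 lower by 2-fold or more, and 1156 higher and 1919 lower by 1.5-fold or more; in the upper 25% by signal the counts were 6, 4, 33 and 31. With all probe sets of a gene averaged, dim ones included, 26 genes were 2-fold or more higher and 26 lower. Of the genes past 1.5-fold 52.3% were lower; the share was 62.4% with no filter, 60.8% with arrays centred on their medians and 48.4% after loess. Of the 27 genes at 2-fold, 26 remained with arrays centred and 26 under quantile normalization, 25 after loess, 23 with 64 added to each signal, 24 relative to length and signal classes and 10 in the upper 25%. With probe set and filter taken from control and PKA-CA alone 23 remained, and Zip102B, Cyp4g1, CAH5 and et fell under the signal threshold.

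Of list medians at 0.1 or beyond, signs turned for amine receptors (-0.23), UDP-glycosyltransferases (-0.082) and sugar transporters (0.18) in the upper 25% by signal, for TRP channels (-0.14) and cuticle proteins (-0.016) with no filter, and for cytosolic ribosomal proteins (0.020) under quantile normalization. The tubulin and actin median was 0.38 in the upper 25%. Of 665 list medians under alternatives 45, in 23 of 74 lists, had the other sign, 39 of them in lists within 0.1 of 0, and 130 more differed by over 1.5 times. Apart from the 6 turned medians and the tubulin and actin value given above, medians moved by less than 0.27, the SD between probe sets of a gene. Of 5461 gene values 5406 moved by less than that, 54 by more, and stw turned to -0.074 when its probe sets were averaged. The cause was not tested.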

Other observations

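Memory genes had 16 of 19 higher and a median log2 ratio of 0.14, which was 0.07 relative to genes of like length and signal and 0.04 in the brightest 25% of genes. Among them stau, for an RNA-binding protein, was the one past 1.5-fold, with 1888 in control, 1708 in PKA-DN and 2928 in PKA-CA heads (0.63), while ben, for a ubiquitin-conjugating enzyme, had 4030 in control and 4991 in PKA-CA heads (0.31). Adhesion proteins of the dpr and DIP families had 9 of 14 higher, from dpr17 at -0.28 to dpr19 at 0.34, and the beaten path and sidestep family was evenly split, from beat-IIIb at -0.39 to beat-IIIc at 0.21. Amine receptor genes had 6 of 7 higher and peptide processing genes 6 of 7, including amon, for a prohormone convertase, at 0.25. Among amine synthesis and transport genes, Hdc, for the enzyme that makes histamine, had 1532 and 2118 (0.47).

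Secreted and metabolic groups varied more by gene. Serpin genes, for protease inhibitors, had 8 of 11 lower; Spn47C had 653 in control and 980 in PKA-CA heads (0.59) and Spn55B 632 and 400 (-0.66). In the juvenile hormone binding family Jhbp11 had 272 and 433 (0.67) and Jhbp14 7990 and 5510 (-0.54). Lysosomal genes had 13 of 18 lower, from CtsL1, a cathepsin L gene, at -0.34 to Cln3 at 0.41. Mitochondrial carrier genes had 10 of 16 lower, with colt, a carnitine carrier gene, at -0.38. Iron genes had 8 of 11 lower, with Irp-1B at -0.39, and translation factor genes were evenly split, from eRF1, the release factor gene, at 2961 and 1992 (-0.57) to eIF4G2 at 0.34. Carbonic anhydrase genes other than CAH5 lay between -0.08 for CAH7 and 0.35 for CAH9, and Pgant genes other than Pgant4 between -0.25 for Pgant8 and 0.30 for Pgant7.

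Only 72 of the 216 genes past 1.5-fold, and 15 of the 27 at 2-fold, were in any of the lists. Of 32 gut enzyme genes 1 was compared, and of 31 ovary and egg genes 2 were; summed signals of these lists were 9733 and 7741, and 1963 and 1892, in control and PKA-CA heads. Over genes placed on a chromosome, the share past 1.5-fold ran from 2.76% on the X to 4.39% on 2R.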
